A study of Mus musculus with 2 samples.

Results

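The miR-200 family is a group of microRNAs that is typical of epithelial cells. In this family, 5 hairpin precursors give the mature forms miR-200a, miR-200b, miR-200c, miR-141 and miR-429. The members were taken by name, as 8 mature microRNAs, of which 5 are 3p arms and 3 are 5p arms. Of these 8, 6 were listed among the 484 mature microRNAs of experiment 1 and 8 among the 1915 of experiment 2. The values come from small RNA libraries of mouse liver, 1 from ethanol-fed and 1 from pair-fed mice in both of 2 experiments, which were deposited as separate tables. All libraries were from wild-type female C57BL/6 mice that were 8 to 10 weeks old at the start. Both groups were first given 5 days of liquid Lieber-DeCarli control diet. The ethanol-fed mice (labelled Et-OH) then had this diet with 5% (v/v) ethanol for 10 days and a gavage of 6 g/kg ethanol on day 16, whereas the pair-fed mice (labelled Control) had isocaloric control diet and dextrin-maltose. Livers were collected 9 h after the gavage. The design statement of the series gives 16 days of ethanol feed instead of 10. The labels hold 1 sample per condition and do not say how many animals stand behind a library, so no spread between animals can be given, and no p-value was computed.

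A microRNA is cut from a hairpin, and 1 of the hairpin's arms usually becomes the guide strand that is loaded into Argonaute. The guide finds messenger RNAs mainly through its seed, bases 2 to 8 from the 5′ end. The miR-200 guides are the 3p arms, and they are best known for silencing the transcription factors ZEB1 and ZEB2, which in turn repress E-cadherin and the miR-200 genes themselves. In liver, the family is known as a feature of the bile duct epithelium rather than of hepatocytes. In whole liver RNA, fewer cells of a type and less of the RNA per cell cannot be told apart.

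The genes lie in 2 clusters. On chromosome 4, Mir200b, Mir200a and Mir429 occupy 1846 bp on the minus strand, from 156053905 to 156055750 (GRCm38.p6, RefSeq). By the GENCODE annotation of GRCm38, they lie in an intron of *Ttll10* on the same strand, and also within the noncoding gene Gm13648, where Mir429 falls in exon 2 and the other two in an intron. On chromosome 6, Mir200c and Mir141 occupy 477 bp on the minus strand, from 124717914 to 124718390, in an intron of the noncoding gene Gm15884. Mir141 also overlaps the unconfirmed transcript Gm29008. The members of a cluster can thus share a primary transcript, and they are not independent of each other.

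All 8 members matched a RefSeq mature sequence. They are shown under the names of the tables (mmu for mouse, left out below) with the seed in capitals, because the seeds cut across the genomic clusters.
mmu-miR-200a-3p: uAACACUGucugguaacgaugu
mmu-miR-141-3p: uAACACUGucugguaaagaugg
mmu-miR-200b-3p: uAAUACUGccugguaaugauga
mmu-miR-200c-3p: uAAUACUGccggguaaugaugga
mmu-miR-429-3p: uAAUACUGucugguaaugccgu
mmu-miR-200a-5p: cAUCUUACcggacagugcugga
mmu-miR-200b-5p: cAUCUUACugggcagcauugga
mmu-miR-141-5p: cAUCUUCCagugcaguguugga

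The first seed, AACACUG, belongs to miR-200a-3p of chromosome 4 and miR-141-3p of chromosome 6. The second seed, AAUACUG, belongs to miR-200b-3p and miR-429-3p of chromosome 4 and miR-200c-3p of chromosome 6. Among the 1679 mouse mature names of the RefSeq table, no name outside the family has either of these 2 seeds. Between miR-200a-3p and miR-200b-3p the seed differs by C4U, counted from 1 at the 5′ end of miR-200a-3p. miR-200a-3p and miR-141-3p share their first 16 bases and differ by C17A and U22G. miR-200b-3p and miR-200c-3p share their first 10 bases and differ by U11G and A22G over the length of the former. A read of the 18 to 40 nt fraction that starts at base 1 therefore covers at least 1 base that tells the members of each of these pairs apart, but whether the counting allowed mismatches is not given in the sources used here.

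Reads on microRNAs numbered 4170601 with pair-feeding and 4311802 with ethanol in experiment 1. In experiment 2, low values moved in steps of 0.0925 RPM (pair-fed) and 0.0924 RPM (ethanol-fed), where RPM is reads per 1000000 reads on microRNAs. If a step is 1 read, the totals were 10811792 and 10819721 reads. Values under 10 such reads were listed as 0 in experiment 2. miR-122-5p, a defining microRNA of hepatocytes, was present in all 4 libraries, at 2971 (pair-fed) and 2210 RPM (ethanol-fed) in experiment 1 and at 182938 and 156660 RPM in experiment 2. In experiment 1 it lay far below miR-192-5p, which was at 388161 (pair-fed) and 373090 RPM (ethanol-fed). In experiment 2 it lay above miR-192-5p, which was at 117318 and 109724 RPM. The 2 experiments thus differed in makeup well beyond the family, and levels are compared within an experiment unless stated. Intervals are 95% intervals of the read counts (exact Poisson for the level of 1 member, Clopper-Pearson for a summed level, a share and the ratio of 2 counts), and they cover counting error only. Levels are numbers of reads, and ligation and amplification can differ between microRNAs.

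In experiment 1, the family was scarce and its summed level was nearly the same in both libraries. The pair-fed library had 259 reads, or 62.1 RPM (54.8 to 70.1), and the ethanol-fed library had 267 reads, or 61.9 RPM (54.7 to 69.8). The fold of ethanol-fed over pair-fed was 0.997, with an interval of 0.837 to 1.19, so that counting error alone allows neither a 1.5-fold rise nor a 1.5-fold fall between these libraries.

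In experiment 2, the family was more abundant and its summed level was higher in the ethanol-fed library. It stood at 525.0 RPM (512 to 539) in the pair-fed library and at 899 RPM (882 to 918) in the ethanol-fed library. The fold was 1.71, with an interval of 1.66 to 1.77, which does not overlap that of experiment 1. With 1 library per condition, this difference is between libraries and not shown to be one between diets.

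**Figure D1:**
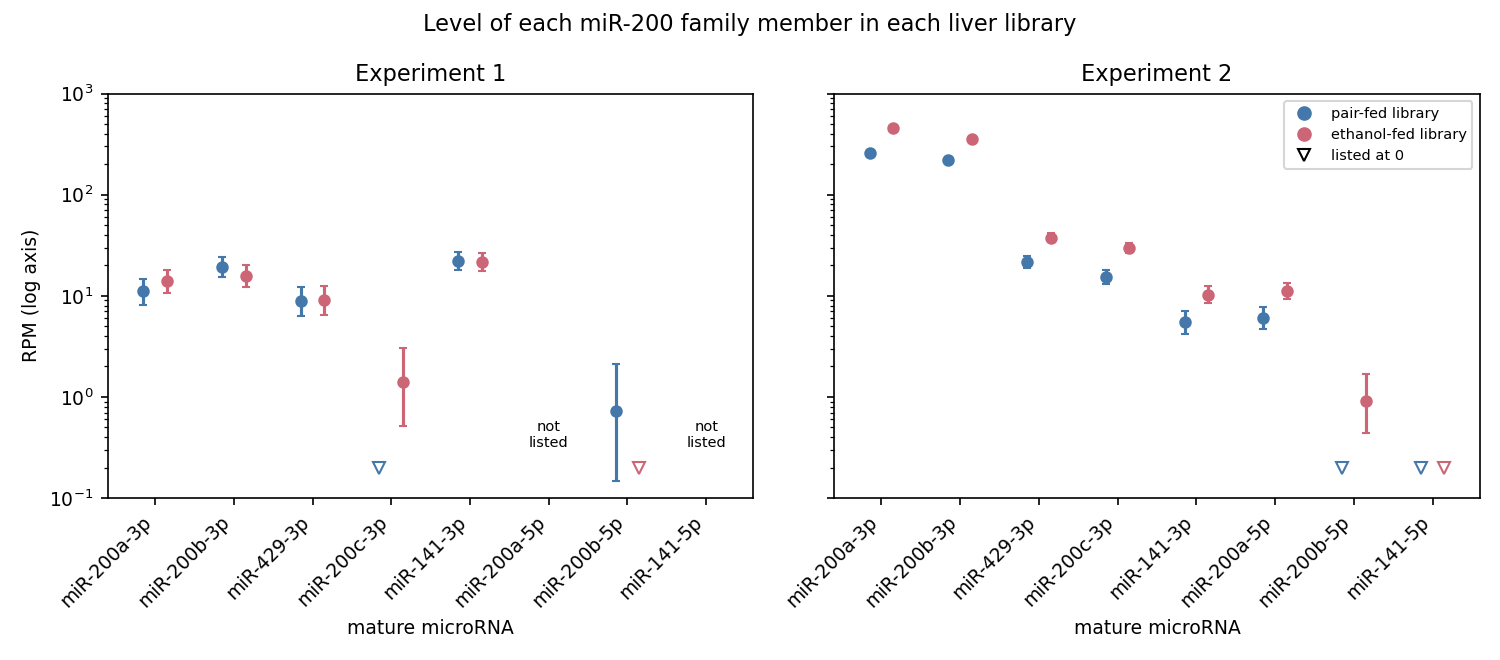
Level in RPM (log axis) of the 8 family members by library (pair-fed or ethanol-fed) in experiments 1 and 2, with bars for 95% Poisson intervals and open triangles for values listed at 0. In experiment 1 the intervals of the 2 libraries overlap for the 4 most abundant members, whereas in experiment 2 the ethanol-fed point is higher for the 6 members above 0 in both libraries.

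Among the guides with the seed AACACUG, mmu-miR-200a-3p was the most abundant member in experiment 2. It was at 257 RPM (248 to 267) with pair-feeding and 453 RPM (440.5 to 466) with ethanol, ranking 93 and 73 among the microRNAs of these libraries. The ethanol-fed value was 1.76-fold higher (1.68 to 1.84). In experiment 1, miR-200a-3p had 46 reads (11.0 RPM) with pair-feeding and 60 reads (13.9 RPM) with ethanol. This ratio of 1.26 has an interval of 0.845 to 1.89, which includes both no difference and the fold of experiment 2.

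mmu-miR-141-3p, which shares this seed but comes from chromosome 6, behaved differently in level. It led the family in experiment 1, with 92 reads (22.1 RPM) with pair-feeding and 94 reads (21.8 RPM) with ethanol, a fold of 0.988 (0.733 to 1.33). In experiment 2 it was among the least abundant members, with 5.46 RPM with pair-feeding and 10.3 RPM with ethanol. The ethanol-fed value of experiment 2 was 1.88-fold higher (1.36 to 2.62), an interval that lies just above that of experiment 1.

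Among the guides with the seed AAUACUG, mmu-miR-200b-3p was the most abundant. It had 81 reads (19.4 RPM) with pair-feeding and 68 reads (15.8 RPM) with ethanol in experiment 1, a fold of 0.812 (0.579 to 1.13). In experiment 2 it was at 219 RPM with pair-feeding and 357 RPM with ethanol, 1.63-fold higher (1.54 to 1.71). It was lower in the ethanol-fed library in the first case and higher in the second, and these 2 intervals do not overlap.

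miR-429-3p, the third guide of chromosome 4, had 37 reads (8.87 RPM) with pair-feeding and 39 reads (9.04 RPM) with ethanol in experiment 1, a fold of 1.02 (0.633 to 1.64). In experiment 2 it was at 21.6 RPM with pair-feeding and 37.6 RPM with ethanol, 1.75-fold higher (1.48 to 2.06).

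miR-200c-3p, the other guide of chromosome 6, was nearly absent from experiment 1. The pair-fed library held 0 of 4170601 reads, and the ethanol-fed library held 6 reads (1.39 RPM, 0.511 to 3.03). The Poisson interval of the 0 reads reaches 0.884 RPM and overlaps the latter. Overlap of 2 levels does not show that they are equal, and no interval of their ratio is given. If the 0 is taken as 3 reads (0.719 RPM), the ethanol-fed value is 1.93-fold higher, a point value that rests on 6 reads. The counts of miR-200c-3p were too few for the minimum of 10 reads set here for testing a microRNA. In experiment 2 it was at 15.3 RPM with pair-feeding and 29.9 RPM with ethanol, 1.96-fold higher (1.62 to 2.37), the highest fold among the members above 0 in both libraries.

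The 5p arms, usually the discarded strands, were rare throughout. miR-200a-5p was not listed in experiment 1 and was at 6.01 RPM with pair-feeding and 11.3 RPM with ethanol in experiment 2, 1.88-fold higher (1.38 to 2.57). miR-200b-5p had 3 reads with pair-feeding and 0 with ethanol in experiment 1, a difference not detectable at this depth. In experiment 2 the pair-fed value was a listed 0 and the ethanol-fed value 0.92 RPM, which is the lowest value listed, so no fold is given. miR-141-5p was not listed in experiment 1 and was listed at 0 in both libraries of experiment 2. The opposite arms of the remaining hairpins, miR-200c-5p and miR-429-5p, which are not among the 8 members, were likewise at 0 in experiment 2 and not listed in experiment 1.

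Within a library, the ratio of arms needs no scaling between libraries. For miR-200a in experiment 2, reads of the 3p arm outnumbered those of the 5p arm 42.8-fold (33.5 to 55.7) with pair-feeding and 40.2-fold (33.6 to 48.5) with ethanol. The guide and its passenger were thus both higher in the ethanol-fed library, in a ratio that differed by less than its counting error. For miR-200b, the 3p arm outnumbered the 5p arm 386-fold (210 to 805) with ethanol in experiment 2, where the 5p arm had 10 reads, the lowest value listed. With pair-feeding in experiment 2 the 5p arm is a listed 0 and no ratio is given, so the diets cannot be compared there. In experiment 1 the ratio was 27.0-fold (8.92 to 134) with pair-feeding, where the 5p arm had 3 reads. With ethanol it was 68 against 0 reads, with a lower bound of 17.9-fold.

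On the log2 scale, with 1 read added to each library, the 4 members of experiment 1 with at least 10 reads had ratios of ethanol-fed over pair-fed between -0.30 and 0.33. Their median was 0.0043, against -0.013 over all 302 microRNAs tested. None of the 4 was at least 2-fold higher or lower, while 12.6% of all tested were higher and 12.9% lower by this measure.

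In experiment 2, 7 members reached 10 reads, and 1 of them passed only through its ethanol-fed value, miR-200b-5p. The 6 members above 0 in both libraries had log2 ratios between 0.70 and 0.96 and a median of 0.86, against a median of 0.0026 over all 469 tested, of which the middle 50% ran from -0.42 to 0.38. The only member past 2-fold was miR-200b-5p, with its listed 0, while 10.7% of all tested were at least 2-fold higher and 15.1% lower. At 1.5-fold, a threshold chosen after the values were seen, 6 of the 6 members above 0 in both libraries were higher, against 12.4% of the 402 such microRNAs. In experiment 1 it was 0 of 4 members, against 21.3% of 300. The 6 members come from 2 clusters, and miR-200a contributes both arms, so that they do not count as 6 separate observations.

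**Figure D2:**
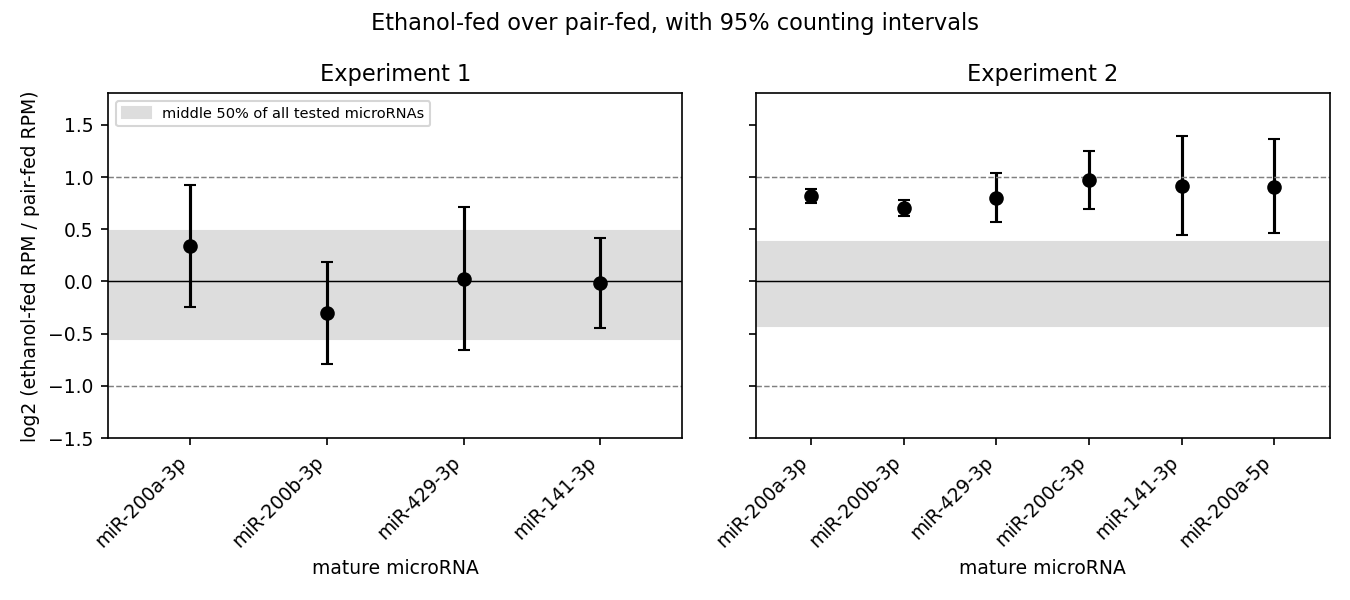
Ethanol-fed over pair-fed RPM as a log2 ratio for the members with at least 10 reads and above 0 in both libraries, with 95% counting intervals; the grey band is the middle 50% of all tested microRNAs and dashed lines mark 2-fold. All 4 intervals of experiment 1 include 0, and the 6 intervals of experiment 2 lie above 0 and above the band.

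**Figure D3:**
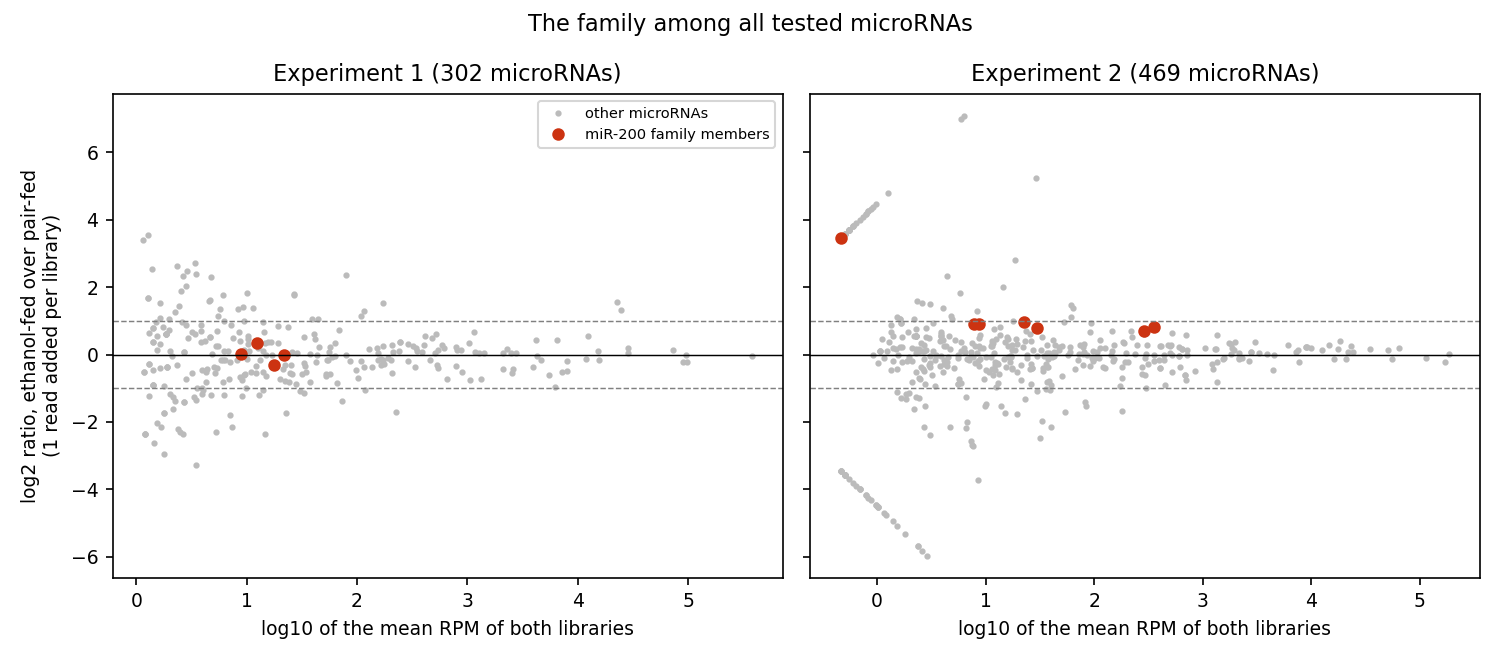
Log2 ratio (1 read added per library) against the log10 of the mean RPM for all tested microRNAs, 302 in experiment 1 and 469 in experiment 2, with family members in red. In experiment 2 the members above 0 in both libraries sit between 0.70 and 0.96 across their range of levels, and the member at the far left, at 3.46, is miR-200b-5p, whose pair-fed value is a listed 0.

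Both clusters took part in the difference of experiment 2. The chromosome 4 cluster went from 504 to 859 RPM, 1.70-fold (1.65 to 1.76), and the chromosome 6 cluster from 20.7 to 40.1 RPM, 1.94-fold (1.64 to 2.29). The intervals overlap, so a difference between the clusters was not detectable. In experiment 1 the chromosome 4 cluster had 167 reads in each library (0.967-fold after scaling, 0.776 to 1.21) and the chromosome 6 cluster 92 and 100 reads (1.05-fold, 0.784 to 1.41).

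The 2 seed groups were likewise close to each other. In experiment 2, guides with AACACUG were at 263 RPM with pair-feeding and 463 RPM with ethanol (1.76-fold, 1.68 to 1.85), and guides with AAUACUG at 256 and 424 RPM (1.66-fold, 1.58 to 1.74). In experiment 1, the former had 138 and 154 reads (1.08-fold, 0.852 to 1.37) and the latter 118 and 113 reads (0.926-fold, 0.709 to 1.21). Guides with AACACUG held 53.3% and 57.7% of the family's reads in experiment 1 and 50.1% and 51.5% in experiment 2.

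The makeup of the family was similar in the 2 libraries of an experiment and unlike between experiments. miR-141-3p supplied 35.5% (29.7 to 41.7) and 35.2% (29.5 to 41.3) of the family's reads with pair-feeding and with ethanol in experiment 1. In experiment 2 it supplied 1.04% (0.792 to 1.34) and 1.14% (0.939 to 1.37). miR-200a-3p supplied 17.8% and 22.5% in experiment 1 and 49.0% and 50.4% in experiment 2, and took the place of miR-141-3p as the main guide with the seed AACACUG. miR-200b-3p was less variable, with 31.3% and 25.5% in experiment 1 and 41.8% and 39.6% in experiment 2.

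**Figure D4:**
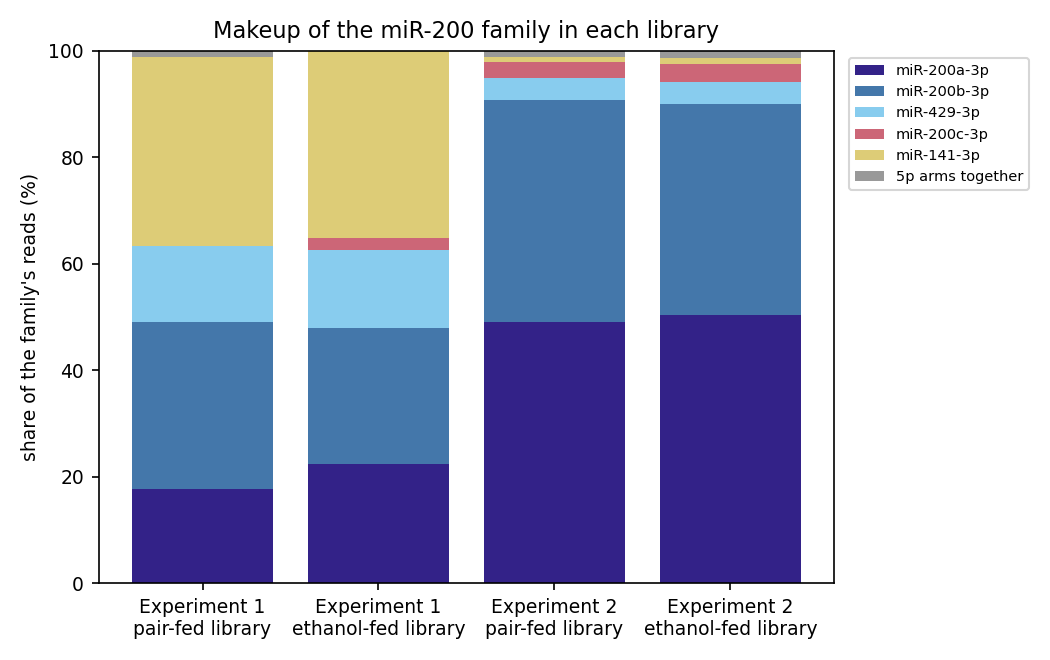
Share of the family's reads (%) held by each 3p arm and by the 5p arms together, in each of the 4 libraries. The 2 bars of an experiment look alike, whereas miR-141-3p holds 35.5% and 35.2% in experiment 1 and 1.04% and 1.14% in experiment 2.

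The order of the members by level followed from this. In the pair-fed library of experiment 1 it was miR-141-3p, miR-200b-3p, miR-200a-3p, miR-429-3p, miR-200b-5p and miR-200c-3p. The intervals of miR-141-3p and miR-200b-3p overlapped there, as did those of miR-200a-3p and miR-429-3p and those of miR-200b-5p and miR-200c-3p, but miR-200a-3p (8.08 to 14.7 RPM) lay below miR-200b-3p (15.4 to 24.1 RPM), and miR-200b-5p below miR-429-3p. In the ethanol-fed library, miR-200c-3p passed miR-200b-5p, and the intervals of neighbours overlapped except between miR-429-3p and miR-200c-3p. In both libraries of experiment 2 the order was miR-200a-3p, miR-200b-3p, miR-429-3p and miR-200c-3p, with no overlap of intervals between neighbours, followed by miR-200a-5p and miR-141-3p, whose intervals overlapped.

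Members of 1 cluster can be set against each other within a library. On chromosome 6, miR-200c-3p reads were 2.80 times (2.07 to 3.83) those of miR-141-3p with pair-feeding and 2.91 times (2.34 to 3.64) with ethanol in experiment 2. In the ethanol-fed library of experiment 1 the same ratio was 0.0638 (0.0228 to 0.144), with 6 against 94 reads, and in the pair-fed library it was 0 against 92 reads. The order of these neighbours was therefore opposite in the 2 experiments, in both diets.

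On chromosome 4, miR-200a-3p reads were 1.17 times (1.11 to 1.24) those of miR-200b-3p with pair-feeding and 1.27 times (1.22 to 1.33) with ethanol in experiment 2, and 0.568 (0.387 to 0.825) and 0.882 (0.613 to 1.27) times in experiment 1. miR-429-3p stood at 0.0983 (0.0855 to 0.112) and 0.105 (0.0950 to 0.117) times miR-200b-3p in experiment 2, and at 0.457 (0.301 to 0.682) and 0.574 (0.377 to 0.863) times in experiment 1. For both pairs the intervals of the 2 diets overlapped within an experiment.

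Between experiments, whose values were scaled separately, the pair-fed level of miR-200a-3p was 23.3-fold higher in experiment 2, that of miR-200b-3p 11.3-fold and that of miR-429-3p 2.43-fold, while miR-141-3p was 4.04-fold higher in experiment 1. Large differences of this kind were common: of 277 microRNAs tested in both experiments and above 0 in both pair-fed libraries, 52.3% were at least 2-fold higher in experiment 2 and 18.4% at least 2-fold lower. miR-200a-3p was among the 10.8% with the highest ratios and miR-141-3p among the 11.9% with the lowest. The median log2 ratio of experiment 2 over experiment 1 was 1.22 over these microRNAs, and that of miR-429-3p was close to it at 1.28.

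Other microRNAs that mark epithelial cells gave other patterns. A list of 6 was written from general knowledge, but with earlier results of these data known. In this list, miR-183-5p, miR-96-5p and miR-182-5p were lower in the ethanol-fed library of both experiments. These 3 come from 1 cluster and are known from sensory and other epithelia. miR-182-5p went from 8265 to 4203 RPM in experiment 1 and from 125 to 42.9 RPM in experiment 2 (log2 ratios -0.98 and -1.54). miR-203-3p, known from skin, went from 258 to 322 RPM and from 1539 to 1958 RPM (0.32 and 0.35), and miR-31-5p from 205 to 217 RPM and from 139.9 to 150.3 RPM (0.086 and 0.10). miR-205-5p had 3 and 0 reads in experiment 1 and went from 1.11 to 0.92 RPM in experiment 2. The summed level of the 6 was 0.542-fold (0.533 to 0.551) in experiment 1, where with pair-feeding miR-182-5p held 8265 of 8901 RPM. It was 1.17-fold (1.15 to 1.19) in experiment 2, where with pair-feeding miR-203-3p held 1539 of 1873 RPM. In experiment 2, 2 of the 6 were at least 2-fold lower (15.1% of all tested) and 0 higher, and in experiment 1 it was 1 of 5 (12.9% of all tested) and 0, all of them from the miR-183 cluster.

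Markers of pancreas, whose acinar and islet cells are also epithelial, moved with the family in experiment 2. The summed level of miR-216a-5p, miR-216b-5p, miR-217-5p and miR-375-3p was 5.92 RPM with pair-feeding and 113 RPM with ethanol, 19.1-fold higher (14.8 to 25.0). All 4 were at least 2-fold higher (10.7% of all tested). Of these, miR-216a-5p and miR-216b-5p had a listed 0 in the pair-fed library and passed the minimum only through their ethanol-fed values. The sum counts a listed 0 as no reads, although it can stand for any number under 10. The fold of the sum is therefore an upper value, and its interval does not cover this. The other 2 members were above 0 in both libraries, miR-217-5p at 1.39 and 56.4 RPM and miR-375-3p at 4.53 and 32.4 RPM. In experiment 1, where the family's sums were nearly the same, the summed level of this list was lower with ethanol, 0.569-fold (0.478 to 0.677). There miR-375-3p had 355 and 205 reads, miR-216b-5p had 0 and 4 reads, and the other two were not listed. The part of this list in the family's difference was not tested.

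Lists for other cell types gave smaller or opposite differences in experiment 2. The hepatocyte list (miR-122-5p, miR-122-3p, miR-802-5p, miR-192-5p and miR-194-5p) had a sum 0.900-fold that of the pair-fed library, with 2 of 5 members higher, and the mesenchymal list (miR-143-3p, miR-145a-5p, miR-199a-3p, miR-199a-5p and miR-214-3p) a sum 1.26-fold, with 2 of 5 higher. The list of red cells (miR-486a-5p, miR-451a and both arms of miR-144) was 0.631-fold and the white cell list (miR-223-3p, miR-142a-3p, miR-142a-5p and miR-150-5p) 0.530-fold, with all members of both lower. In experiment 1 the sums were 0.960-fold for the hepatocyte list, 0.996-fold for the mesenchymal list, 2.93-fold for the red cell list and 0.829-fold for the white cell list. Members higher were 2 of 5, 4 of 5, 4 of 4 and 0 of 4. The hepatocyte sum was mostly miR-192-5p (388161 of 392440 RPM with pair-feeding), so its fold says little about the other members. Their log2 ratios were -0.43 for miR-122-5p, -0.58 for miR-122-3p, 0.15 for miR-802-5p and 0.072 for miR-194-5p. The mesenchymal sum was mostly miR-143-3p (96276 of 96550 RPM with pair-feeding). By member, 2 of these 5 were at least 2-fold higher (12.6% of all tested). The part of these lists in the family's values was not tested.

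The microRNAs whose pair of log2 ratios lay nearest to that of the summed family (-0.0043 and 0.78) were sought among 145 others with at least 100 reads in each experiment, over the 4 libraries. The nearest was miR-125a-5p, with ratios of 0.032 and 0.83 and levels of 269 and 478 RPM in experiment 2. It was followed by miR-23a-3p (-0.0093 and 0.63), miR-802-5p (0.15 and 0.71), let-7d-3p (-0.18 and 0.71) and miR-802-3p (-0.20 and 0.79). Both arms of miR-802, a microRNA known from hepatocytes, are thus among the 5 nearest, at a Euclidean distance of 0.17 and 0.20 on the log2 scale.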

How the data were processed

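Total RNA of livers from the short-term feeding model was size-selected (18 to 40 nt), amplified by RT-PCR and sequenced on a HiSeq 2500. For experiment 1 the authors deposited raw read counts per mature microRNA, and for experiment 2 RPM, rounded to 2 decimals, with low values listed as 0. The second table also holds the authors' own log2 fold changes and p-values, which were not used. The labels name mm8 as genome build, but the tables hold no coordinates; the aligner, counter and microRNA annotation are not given in the sources used here. Columns were assigned to groups by their names.

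RPM were computed from the counts of experiment 1. In experiment 2, 98.0% of 296 (pair-fed) and 97.3% of 291 (ethanol-fed) values under 60 RPM were within 0.1 step of a whole number of steps, and reads were estimated from these steps. Log2 ratios used 1 added read per library, microRNAs with at least 10 reads in both libraries together were tested, and 2-fold was the threshold. This pseudocount understates changes of rare microRNAs. No count model was fitted to 1 library per condition. Alternatives were other scalings, a pseudocount of 0.1 read, no minimum or 100 reads, and, in experiment 2, the lowest listed value in place of 0. The calculations were tested on simulated data.

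Besides the members and their opposite arms, the 5 microRNAs nearest to the family and 6 lists were named. The members, lists and rules were chosen with earlier results of these data known. Sequences and positions are RefSeq (GRCm38.p6), and overlapping genes are from GENCODE (GRCm38). Scripts ran in Python 3.11.15 with scipy 1.17.1, pandas 2.3.3, matplotlib 3.10.9 and numpy 2.4.6.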

Additional observations from a re-analysis of the deposited data

Results flagged for a closer look

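Ethanol-fed over pair-fed, the log2 ratio had opposite signs in the 2 experiments for the summed family, its chromosome 4 cluster, the guides with the seed AAUACUG, miR-200b-3p and miR-141-3p. For the summed family it was -0.0043 in experiment 1 and 0.78 in experiment 2, a difference of 0.78. For the chromosome 4 cluster it was -0.048 and 0.77, a difference of 0.82. For the guides with AAUACUG it was -0.11 and 0.73, a difference of 0.84. miR-200b-3p had -0.30 and 0.70, a difference of 1.00, and miR-141-3p had -0.017 and 0.90, a difference of 0.92. The sign in experiment 1 depends on the processing for 2 of these 5 results. With median-of-ratios size factors the summed family was at 0.029 and miR-141-3p at 0.016. The summed family was also at 0.044 with unscaled reads and 0.0026 without its most abundant member. In these cases both experiments have the same sign. Whether the experiments differ in their response was not tested, because each has 1 library per condition, and all 5 values of experiment 1 have counting intervals that include 0.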

How the results depend on the processing

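Of 73 log2 ratios of members and sums under the alternatives, 69 stayed within the counting interval of the reported value. The other 4 belong to miR-200b-5p in experiment 2, which has no interval because its pair-fed value is listed at 0: from 3.46 it went to 3.45 with median-of-ratios size factors, 3.46 without the most abundant microRNA in the total, 6.66 with a pseudocount of 0.1 read and -0.0011 with zeros at the lowest listed value, which follows from how a 0 is read. The summed family ranged from -0.039 to 0.044 in experiment 1 and from 0.74 to 0.78 in experiment 2. No scaling shifted the median of all microRNAs by more than 0.048.

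Counts of microRNAs at least 2-fold higher and lower in experiment 1 were 38 and 39, with no minimum 99 and 102, with 100 reads 10 and 9, and at 1.5-fold 66 and 68. In experiment 2, 50 were higher and 71 lower, with 100 reads 12 and 24, with zeros at the lowest listed value 22 higher, and at 1.5-fold 81 higher. Among members, no minimum gave 1 higher and 1 lower in experiment 1, where 0 were reported. In experiment 2 the 1 member higher became 0 with 100 reads or with zeros at the lowest listed value, and 7 of 7 at 1.5-fold, against 81 of 469 microRNAs, a threshold added after seeing the data. Of these 7, miR-200b-5p passed only through its listed 0, and without it 6 of 6 members above 0 in both libraries were higher. Lower minimums admit microRNAs with few reads.

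No paired analysis was possible because the labels give 1 sample per condition and no replicate numbers, and the 2 log2 ratios, 1 per experiment, were not tested together. With 1 library per condition in an experiment, no library was left out. With 1 library, depth limits only counting error, and differences between animals are not measured.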
